A study of Homo sapiens with 18 samples.

Results

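The RNA of LNCaP cells in which FOXA1 had been knocked down was compared with and without KC7F2, a small-molecule inhibitor of HIF1A, under a chemical mimic of hypoxia. LNCaP is an established human prostate cancer line of luminal character that carries the androgen receptor. All cells were infected with lentivirus for 5 days, with the empty pGIPZ vector (control) or with shRNAs, and all groups received 100 µM CoCl2 for the last 24 h. The comparison took 6 of the 18 libraries: shFOXA1 with 40 µM KC7F2 for 24 h (3 libraries) and shFOXA1 alone (3 libraries). It covered 12900 of 26443 genes, those with at least 1 RPKM (reads scaled to transcript length and library size) in at least 3 of the 18 libraries. Control cells with and without KC7F2 (3 libraries each) and cells with shRNAs against both FOXA1 and HIF1A (3 libraries) were set beside it. The labels give triplicates but not separate cultures or infections, so the p-values reflect the spread among these libraries, which may be technical, and the vehicle of KC7F2 and the number of shRNAs per target are not stated there.

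HIF1A pairs with a stable partner to form the transcription factor that switches on glycolysis, angiogenesis and pH control genes when oxygen is short. CoCl2 blocks the hydroxylases that mark HIF1A protein for destruction, so the protein persists at normal oxygen, and KC7F2 is known for lowering HIF1A protein synthesis. FOXA1 is a pioneer factor that opens chromatin for the androgen receptor in luminal prostate cells. A small molecule can also touch other stress programmes, among them NRF2, which is held by KEAP1 until electrophiles or oxidants modify KEAP1 and then drives glutathione and NADPH genes, and SREBP, which drives sterol and fatty acid synthesis when membrane sterol is low.

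FOXA1 mRNA (chromosome 14, 37589984 to 37596059, minus strand, hg38) read 71.6, 114 and 107 RPKM in the control libraries, 35.1, 32.4 and 34.8 in shFOXA1 and 41.2, 42.6 and 34.03 in shFOXA1 with KC7F2. Both knockdown groups lay below every control library and overlapped each other, with a log2 fold change of 0.19 ± 0.16 between them (adjusted p = 0.623). HIF1A mRNA (chromosome 14, 61695513 to 61748259, plus strand) read 88.6, 81.6 and 99.5 RPKM in shFOXA1 and 69.9, 67.99 and 50.6 with KC7F2. The KC7F2 libraries were lower without overlap, as in 14.5% of all genes tested (11.1% were higher without overlap), but the change of -0.52 ± 0.23 (95% interval -1.02 to -0.03) did not pass (adjusted p = 0.275). It passed when 3 control libraries with an unlike signal in short genes were left out of the shared estimate of spread (adjusted p = 0.0414, range over the alternatives 0.0414 to 0.577). Each change in the text is a log2 fold change ± SE, computed after 0.5 was added to every RPKM, and so is understated at low RPKM. Genes rose or fell where limma gave an adjusted p below 0.05 (Benjamini-Hochberg over 12900 genes), and other values are given without such a verb.

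Depth, estimated from the spacing of the lowest values, was 5223000 to 7772000 reads in shFOXA1 and 6713000 to 9226000 with KC7F2. All 9 luminal markers, such as KLK3 and the androgen receptor, reached 1 RPKM, and their summed level was 1385 to 1531 RPKM in shFOXA1 and 1397 to 1516 with KC7F2. Basal cell markers summed to 4.19 to 6.54 and 3.64 to 5.23 RPKM, with KRT5 listed at 0 throughout, and fibroblast and endothelial markers stayed below 3.53 RPKM in sum. Of 4 leukocyte markers only CD68, which is also a lysosomal membrane protein, reached 1 RPKM, and PTPRC and CD3E were listed at 0 in all 3 shFOXA1 libraries. The leukocyte sum was 18.3 to 19.4 RPKM in shFOXA1 and 11.6 to 13.3 with KC7F2, and CD68 fell by 0.60 ± 0.14 (adjusted p = 0.0263). That call was lost without shFOXA1 1 (adjusted p = 0.0973), 2 (0.0658) or 3 (0.0707), or without shFOXA1 with KC7F2 1 (0.0968) or 2 (0.104). In bulk RNA, fewer cells of a type and less RNA per cell cannot be told apart.

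With KC7F2, 220 genes (1.71% of those tested) rose and 306 (2.37%) fell in FOXA1 knockdown cells, 526 in all (4.08%), and 45 and 78 of them changed at least 2-fold. Lysosomal, antioxidant and lipid genes were among the largest rises, and keratins, secreted defence proteins and a chemokine among the largest falls. Small RNA genes made up 7 of the rises and 4 of the falls and are counted without being named. At an unadjusted p below 0.05 there were 935 higher and 1162 lower genes, and the median log2 fold change of all 12900 genes was -0.0093. With any 1 of the 6 libraries left out, 114 to 151 genes rose and 181 to 206 fell: 123 and 183 without shFOXA1 1, 151 and 206 without 2 and 125 and 197 without 3, then 129 and 201, 114 and 197, and 132 and 181 without shFOXA1 with KC7F2 1, 2 and 3. In all 6 of those fits 217 of the 526 calls were kept.

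**Figure D1:**
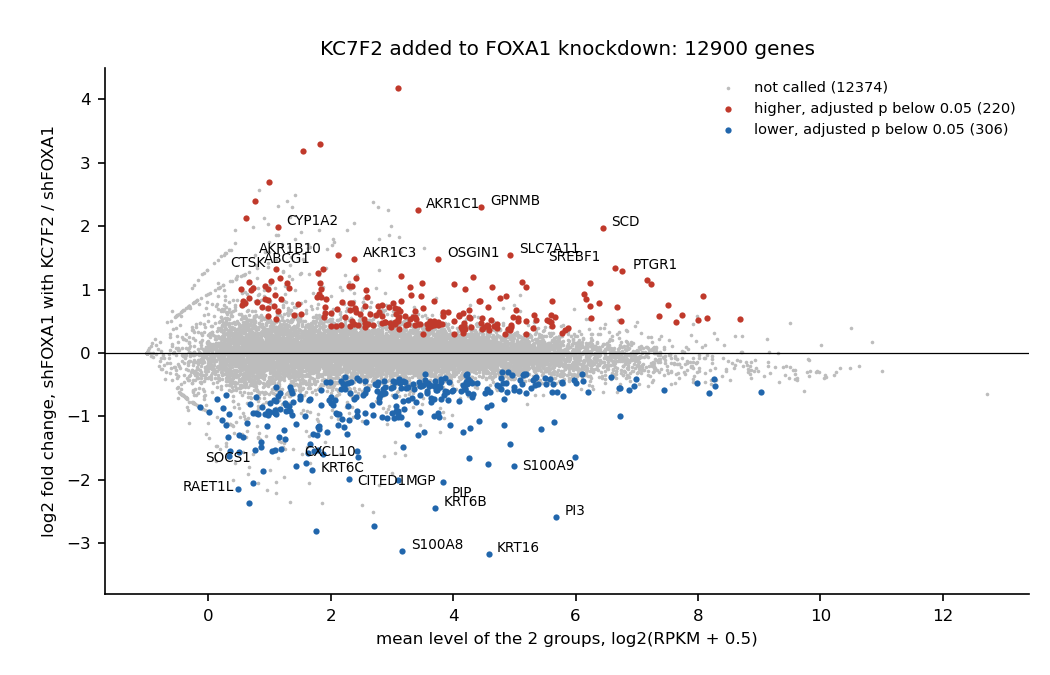
Log2 fold change with KC7F2 in FOXA1 knockdown cells (vertical axis) against the mean level of both groups as log2(RPKM + 0.5) (horizontal axis), each point a gene of 12900; red points are the 220 genes that rose and blue points the 306 that fell. The names are the 12 largest rises, from GPNMB and AKR1C1 to PTGR1, and the 12 largest falls, led by KRT16 and S100A8; small RNA genes are left unnamed.

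The antioxidant genes driven by NRF2 rose together. Of 29 tested members of that list, 20 rose and 0 fell, against 1.71% and 2.37% of all genes tested, and the list's median was 0.65. Leaving out a library gave 14 to 18 rises, apart from 13 without shFOXA1 1, and 13 of the 20 kept the call under all 18 alternatives tried. NQO1, the quinone reductase taken as a standard readout of NRF2 (chromosome 16, 69706996 to 69726951, minus strand), read 92.2, 98.7 and 95.9 RPKM in shFOXA1 and 212, 195 and 204 with KC7F2. Every KC7F2 library stood well above every shFOXA1 library, with a rise of 1.09 ± 0.12 (adjusted p = 3.67e-05). NRF2 mRNA itself (NFE2L2) read 24.3, 20.6 and 20.9 against 23.9, 23.2 and 22.7 RPKM, overlapping groups with a change of 0.09 ± 0.09 (adjusted p = 0.708), which is the level of its mRNA and not of its protein.

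The antioxidant response element is the site bound by NRF2. Its core, TGACNNNGC on either strand, was searched in the 250 bases before each RefSeq start site, and it stood in 10.9% of 35116 such windows. A window was at hand for 16 of the 20 risen members, and 6 of these held the core: CBR1, GCLM, KEAP1, ME1, PGD and TXNRD1. Among all tested genes with a window, 16.3% of 9254 held it, with 24.1% of the 158 that rose and 17.8% of the 225 that fell. The windows of 3 risen enzymes are shown, 5′ to 3′ on the strand of the gene (RefSeq, GRCh38.p14), with the core in capitals. A match is a run of letters and not a measured binding site, the core shares its first bases with the AP-1 motif TGACTCA, and no match says only that a window lacks these letters. They are GCLM (chr1:93909431-93909680, minus strand, core starting 34 bases before the start site), ME1 (chr6:83431052-83431301, minus strand, 137 bases before) and TXNRD1 (chr12:104215529-104215778, plus strand, 99 bases before).
GCLM: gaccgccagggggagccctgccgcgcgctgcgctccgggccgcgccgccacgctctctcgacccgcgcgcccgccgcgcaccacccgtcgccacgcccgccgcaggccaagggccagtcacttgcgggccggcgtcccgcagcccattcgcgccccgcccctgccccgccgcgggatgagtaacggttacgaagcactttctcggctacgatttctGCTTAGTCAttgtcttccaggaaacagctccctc
ME1: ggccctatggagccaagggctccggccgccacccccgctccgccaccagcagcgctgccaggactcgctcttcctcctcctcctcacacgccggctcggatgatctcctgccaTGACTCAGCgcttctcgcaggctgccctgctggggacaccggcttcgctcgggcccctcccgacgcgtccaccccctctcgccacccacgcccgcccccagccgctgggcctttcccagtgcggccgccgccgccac
TXNRD1: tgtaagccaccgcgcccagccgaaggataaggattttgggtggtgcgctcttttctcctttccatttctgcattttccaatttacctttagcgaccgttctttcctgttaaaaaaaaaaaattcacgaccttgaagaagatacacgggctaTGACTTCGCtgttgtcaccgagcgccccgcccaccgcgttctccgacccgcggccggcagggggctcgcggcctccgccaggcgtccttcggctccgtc

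GCLM, the regulatory subunit of the enzyme that starts glutathione synthesis, read 17.1, 14.5 and 15.4 RPKM in shFOXA1 and 32.6, 34.4 and 31.4 with KC7F2, a rise of 1.04 ± 0.10 (adjusted p = 1.5e-05). ME1, an NADPH-producing malic enzyme, went from 23.2 ± 1.81 to 48.5 ± 2.17 RPKM (SD, n = 3), a rise of 1.05 ± 0.11. TXNRD1, thioredoxin reductase, was the most abundant of the 3 per length at 197, 187 and 178 RPKM and rose to 350.0, 360.0 and 342, by 0.90 ± 0.09. In none of these 3 enzymes did the groups overlap. PGD, a pentose phosphate enzyme that supplies NADPH, rose by 0.73 ± 0.10 (76.1 ± 1.95 to 127 ± 10.8 RPKM, SD, n = 3).

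The cystine transporter is a heterodimer that brings in cystine for glutathione. Its light chain SLC7A11 read 15.8, 13.9 and 15.97 RPKM in shFOXA1 and 44.9, 47.1 and 43.02 with KC7F2, a 2.904-fold rise (adjusted p = 3.17e-07). Its heavy chain SLC3A2, counted with the ATF4 genes below, read 85.9, 95.4 and 86.7 against 203, 202 and 190.3 RPKM, a rise of 1.15 ± 0.12. Both chains were higher in every KC7F2 library. The aldo-keto reductases, which reduce steroids and reactive carbonyls, held the largest rises of the list. AKR1C1 went from 4.05, 3.56 and 2.24 to 17.5, 15.6 and 18.2 RPKM, a rise of 2.25 ± 0.27 (adjusted p = 0.000104). AKR1B10, AKR1C3 and AKR1C2 rose by 1.54 ± 0.21, 1.48 ± 0.20 and 1.26 ± 0.15, and reads of the AKR1C genes can be split between near-identical copies. OSGIN1, an oxidative stress inducible growth regulator, rose by 1.48 ± 0.13, and the sulfiredoxin SRXN1 by 0.75 ± 0.09. Outside the list PTGR1, a reductase of prostaglandins and lipid aldehydes, rose by 1.29 ± 0.16.

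Not every NRF2 gene passed. HMOX1, haem oxygenase, stood at 100.4, 84.98 and 83.05 RPKM in shFOXA1 and 87.1, 80.6 and 97.9 with KC7F2, overlapping groups with a change of -0.01 ± 0.15 (95% interval -0.32 to 0.30, adjusted p = 0.984). The other 7 risen members, CBR1, FTL, GCLC, KEAP1, MAFG, PRDX1 and SQSTM1, had smaller changes, from 0.44 to 0.65, and each lost its call in at least 1 setting. GCLC, the catalytic partner of GCLM, rose by 0.44 ± 0.09 (adjusted p = 0.0125), and lost the call without shFOXA1 1 (0.0612) or shFOXA1 with KC7F2 2 (0.0516).

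Genes of cholesterol and fatty acid synthesis formed the other large rising group. Of 27 tested members 14 rose and 0 fell, against 1.71% and 2.37% of all genes tested, with a median of 0.57. With 1 library left out 10 to 12 rose, and 10 members kept the call under all 18 alternatives. SCD, the desaturase that makes oleate from stearate (chromosome 10, 100347124 to 100364834, plus strand), read 38.7, 33.4 and 32.7 RPKM in shFOXA1 and 147, 133 and 134 with KC7F2. That was a 3.92-fold rise (adjusted p = 2.91e-07), and every KC7F2 library stood more than 3 times above every shFOXA1 library. The master factors rose too. SREBF1, the SREBP gene of fatty acid synthesis, read 55.8, 55.8 and 56.3 against 148, 152 and 131 RPKM, a rise of 1.35 ± 0.12, and SREBF2, the sterol member, read 24.2, 24.2 and 25.7 against 42.2, 41.98 and 35.2 RPKM, a rise of 0.67 ± 0.11 (adjusted p = 0.00179). INSIG1, the sterol sensor's anchor, went from 12.2, 11.6 and 10.98 to 28.7, 26.4 and 27.1 RPKM. Its groups did not overlap, with a rise of 1.20 ± 0.12. STARD4, a sterol carrier, rose by 1.11 ± 0.15 and lanosterol synthase LSS by 0.71 ± 0.12.

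Not every gene of the sterol route passed. HMGCS1, a synthase early in the route, read 10.5, 11.6 and 10.6 RPKM and 10.2, 12.2 and 12.3 with KC7F2, a change of 0.07 ± 0.09 (95% interval -0.12 to 0.27, adjusted p = 0.78). ABCG1, a sterol exporter and a target of the liver X receptors, rose by 1.32 ± 0.19, and MYLIP, a ubiquitin ligase that shares that regulator, rose by 0.57 ± 0.10. FASN, fatty acid synthase, was higher in all 3 KC7F2 libraries (183, 204 and 216 against 327, 336 and 248 RPKM) but missed the threshold at 0.58 ± 0.16 (adjusted p = 0.0509), and passed under 7 of the 18 alternatives, without shFOXA1 with KC7F2 3 (0.0314) among them (range 0.0211 to 0.205). The core of the sterol response element, TCACNCCAC on either strand, was chosen after the data were seen and stood in 0.883% of the 35116 windows. The core stood in 1.18% of tested genes with a window, in 4.43% of those that rose and in 0.889% of those that fell. It was found for SREBF2 alone among 11 risen members with a window (chr22:41832855-41833104, plus strand, core in capitals starting 133 bases before the start site), shown because this gene encodes the factor itself.
SREBF2: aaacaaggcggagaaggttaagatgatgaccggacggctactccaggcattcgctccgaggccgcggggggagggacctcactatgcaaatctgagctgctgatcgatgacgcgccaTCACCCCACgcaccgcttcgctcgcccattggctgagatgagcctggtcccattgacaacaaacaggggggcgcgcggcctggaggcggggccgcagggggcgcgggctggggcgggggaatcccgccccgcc

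The largest rise among the named genes was in GPNMB, a glycoprotein of lysosomes and melanosomes (chromosome 7, 23235967 to 23275108, plus strand). It read 7.28, 6.81 and 6.78 RPKM in shFOXA1 and 39.7, 33.9 and 34.8 with KC7F2, a 4.91-fold rise (adjusted p = 7.07e-09). The lysosome and autophagy list held 5 risen members of 32 and 0 fallen ones, with a median of 0.20. Among all genes tested the shares were 1.71% and 2.37%. LAMP2, CTSD, TFE3 and SQSTM1 changed by 0.46, 0.49, 0.36 and 0.55, and the count of 5 became 3 without shFOXA1 2 or 3 or without shFOXA1 with KC7F2 2 or 3, and 2 without shFOXA1 with KC7F2 1. CTSK, a lysosomal collagenase outside the list, was among the 12 largest rises at 1.32 ± 0.32 (adjusted p = 0.0267). Its shFOXA1 values were scattered, 1.51, 0.181 and 0.748 RPKM, and the call was lost without shFOXA1 2 (0.114) or 3 (0.070) or without shFOXA1 with KC7F2 2 (0.0816) or 3 (0.106). The CTSK call was also lost with no filter on low values (0.0555) and with only the groups compared (0.104). CYP1A2, a cytochrome P450 of drug metabolism, went from 0.748, 0.157 and 0.309 to 3.37, 3.06 and 2.52 RPKM, a rise of 1.99 ± 0.25 at a level where single reads matter.

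ATF4 is the factor of the integrated stress response and turns on amino acid genes. Of 29 members 5 rose and 0 fell, against 1.71% and 2.37% of all genes tested. Yet the median was -0.02, and the list split by gene. SLC7A11 and SLC3A2, already described, and the amino acid carrier SLC38A2 (0.61 ± 0.09) rose, with DDIT3, a pro-apoptotic factor of this pathway, at 1.00 ± 0.21 and TRIB3. The DDIT3 call was lost without shFOXA1 1 (0.0591). TRIB3, a pseudokinase, rose by 0.41 ± 0.10 (adjusted p = 0.0334) and lost the call without shFOXA1 1 (0.0853), 2 (0.0516) or 3 (0.149) or shFOXA1 with KC7F2 2 (0.141) or 3 (0.106). Asparagine synthetase ASNS read 31.2, 25.7 and 27.9 against 25.5, 27.2 and 28.5 RPKM, and the glutathione-degrading enzyme CHAC1 11.2, 8.92 and 8.06 against 6.27, 5.55 and 7.90. Neither passed, at -0.06 ± 0.10 and -0.48 ± 0.21 (adjusted p = 0.859 and 0.258).

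Keratins of stressed squamous epithelium held the largest fall. KRT16, a keratin of stressed and wounded epithelium (chromosome 17, 41609778 to 41615899, minus strand), read 38.96, 49.2 and 39.5 RPKM in shFOXA1 and 3.74, 3.92 and 5.32 with KC7F2, so that 11.1% was left on the log2(RPKM + 0.5) scale (adjusted p = 1.65e-08). Its control libraries held 0.0513, 0.151 and 0 RPKM. The pairing partners of KRT16 belong to the keratin 6 family. KRT6B went from 20.5, 23.2 and 20.9 to 3.76, 4.06 and 2.90 RPKM, a fall of 2.44 ± 0.23, and KRT6C from 4.596, 4.72 and 4.31 to 1.28, 0.653 and 0.847, a fall of 1.84 ± 0.26. Reads of KRT6A, KRT6B and KRT6C, and of KRT16 and its copies, can be shared between them. KRT6A, below 2 RPKM, fell by 1.55 ± 0.32 (adjusted p = 0.0105). The KRT6A call was lost without shFOXA1 2 (0.0514) or shFOXA1 with KC7F2 2 (0.0583), or with a pseudocount of 0.1 (0.0614). Of 11 tested keratins these 4 fell and 0 rose, against 2.37% and 1.71% of all genes tested. The luminal keratins did not pass: KRT8 changed by -0.30 ± 0.15 and KRT18 by 0.04 ± 0.18 (adjusted p = 0.341 and 0.952).

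Secreted defence proteins fell with the keratins, 9 of 15 tested members against 0 that rose, with a list median of -1.25. Among all genes tested 2.37% fell and 1.71% rose. S100A8 and S100A9 form calprotectin, a metal-binding protein of neutrophils and inflamed epithelium. S100A9 read 50.6, 53.4 and 42.6 RPKM in shFOXA1 and 13.8, 15.3 and 12.7 with KC7F2, leaving 29.2%, and S100A8 read 16.4, 19.7 and 10.4 against 0.416, 2.86 and 1.31, a fall of 3.13 ± 0.46. PI3, the elastase inhibitor elafin (chromosome 20, 45174876 to 45176544, plus strand), went from 98.2, 91.9 and 71.9 to 13.7, 12.9 and 15.7 RPKM, a fall of 2.58 ± 0.21 (adjusted p = 2.37e-06). SLPI, a related protease inhibitor, read 105, 94.5 and 86.6 against 26.1, 28.3 and 37.3 RPKM. In each of these 4 genes the lowest shFOXA1 library stood more than 2 times above the highest KC7F2 library. The acute-phase proteins SAA1 and SAA2, whose reads can be shared, fell by 1.43 ± 0.20 and 1.25 ± 0.17, and the iron-siderophore binder LCN2 fell by 1.18 ± 0.19. S100A7 fell by 1.58 ± 0.41 with overlapping groups (adjusted p = 0.0414). The S100A7 call was lost without shFOXA1 1 (0.177) or 2 (0.175) or without shFOXA1 with KC7F2 1 (0.185) or 3 (0.083). It was also lost with no filter on low values (0.0824), only the groups compared (0.17), a replicate block (0.0596) or 3 control libraries left out (0.0655). PIP, an apocrine secretory protein, fell by 2.04 ± 0.39 (adjusted p = 0.00615), and did not pass with a pseudocount of 0.1 (0.127). The leukocyte marker sum given above was lower in the same libraries (11.6 to 13.3 against 18.3 to 19.4 RPKM). Among its 4 markers only CD68, also a lysosomal membrane protein, reached 1 RPKM, and PTPRC and CD3E were listed at 0 in shFOXA1. The part of that sum in these falls was not tested.

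**Figure D2:**
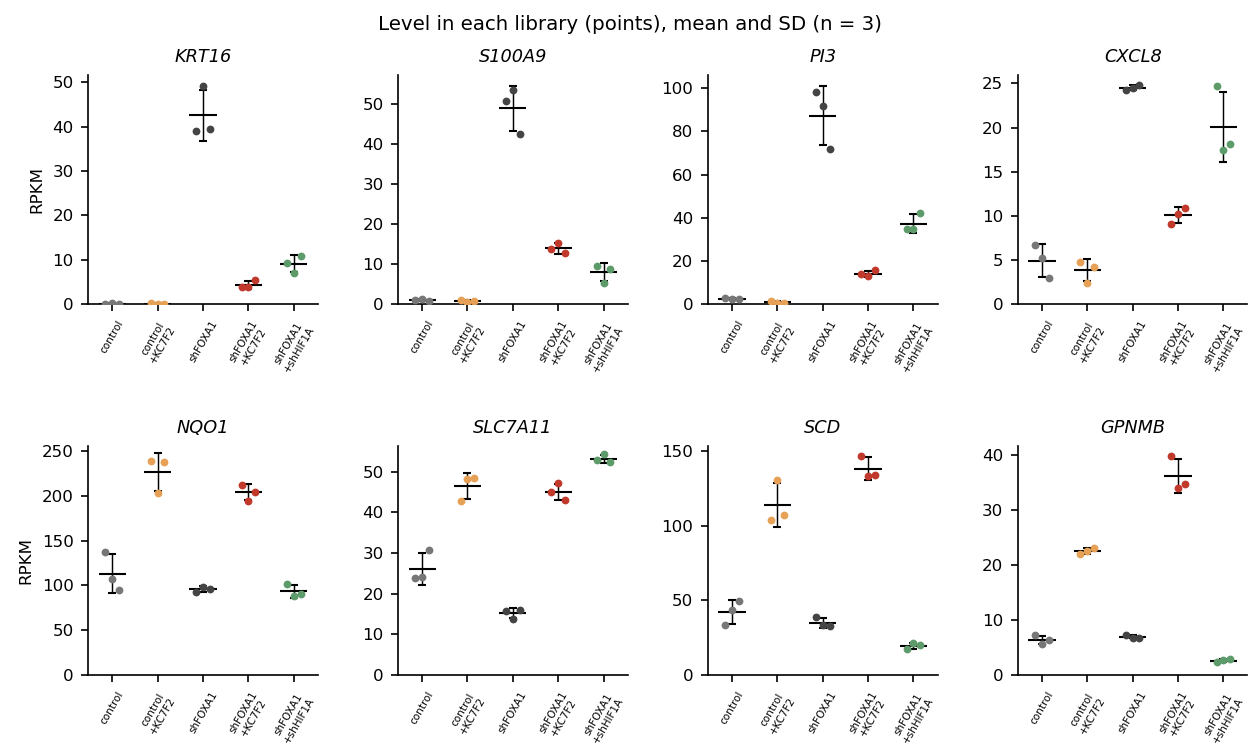
RPKM (vertical axes, from 0) of 8 genes in each library of 5 groups (points), with the mean and SD (n = 3). KRT16, S100A9, PI3 and CXCL8 are high in shFOXA1 and lower in all 3 shFOXA1 libraries with KC7F2, and NQO1, SLC7A11, SCD and GPNMB are higher with KC7F2 in both control and FOXA1 knockdown cells.

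Some genes of inflammatory signalling fell. Of 10 tested chemokines and cytokines 5 fell and 0 rose, against 2.37% and 1.71% of all genes tested, with a median of -0.80. The count was 3 without any 1 of shFOXA1 1, 2 and 3 and shFOXA1 with KC7F2 1 and 2, and 4 without shFOXA1 with KC7F2 3. CXCL8, which attracts neutrophils, read 24.2, 24.5 and 24.8 RPKM in shFOXA1 and 9.05, 10.3 and 10.9 with KC7F2, a fall of 1.25 ± 0.23 (adjusted p = 0.00456). CXCL10, an interferon-induced attractant of T cells, went from 5.34, 3.23 and 2.54 to 0.983, 0.369 and 0.751 RPKM, and TNFSF10, the death ligand TRAIL, from 2.97, 2.08 and 3.79 to 1.03, 0.439 and 1.08. CCL2, which attracts monocytes, read 18.6, 12.7 and 20.7 against 9.17, 7.20 and 11.2 RPKM. The CCL2 groups did not overlap, but the change of -0.88 ± 0.28 (95% interval -1.46 to -0.29) did not pass (adjusted p = 0.097).

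Feedback genes of NF-kB, a factor that drives such cytokines, fell in 4 of 15 cases and rose in 0, and all 15 values were negative (median -0.29). The share of all genes tested was 2.37% for falls and 1.71% for rises, here and for the other lists of this paragraph. TNFAIP3, the ubiquitin editor A20, read 10.4, 10.3 and 12.2 RPKM in shFOXA1 and 5.12, 5.297 and 5.202 with KC7F2, a fall of 1.00 ± 0.12. BIRC3, an inhibitor of apoptosis, fell by 0.95 ± 0.09 and TNFAIP2 by 1.16 ± 0.18. NFKBIA, the inhibitor of NF-kB, changed by -0.34 ± 0.13 (adjusted p = 0.162). SOCS1, which restrains cytokine receptors, went from 2.99, 1.89 and 2.38 to 0.536, 0.123 and 0.282 RPKM, and IRF1, an interferon-response factor, from 5.45, 5.85 and 5.88 to 3.03, 2.98 and 2.92. The interferon list as a whole gave 2 falls and 0 rises of 22, which is too few to set apart from the share of all genes. Only IRF1 was left without shFOXA1 1, 2 or 3 or shFOXA1 with KC7F2 1. Immediate early genes gave 6 falls and 0 rises of 21. The 6 became 3 without shFOXA1 1, 2 or 3 or shFOXA1 with KC7F2 1, and 2 without shFOXA1 with KC7F2 3. DUSP5, a nuclear phosphatase of ERK, kept its call throughout at -1.14 ± 0.18. Of 25 p53 targets, 6 fell and 0 rose (4 to 6 with a library left out). FAS, a death receptor, fell by 0.91 ± 0.15, and BTG2, MDM2 and ZMAT3, which restrain growth or p53 itself, fell by 0.63 ± 0.09, 0.49 ± 0.09 and 0.57 ± 0.11.

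Genes of other kinds, MGP, CITED1 and RAET1L, were also among the 12 largest falls. MGP, matrix Gla protein, an inhibitor of calcification, went from 16.3, 14.6 and 8.93 to 2.95, 3.14 and 2.402 RPKM. CITED1, a transcriptional co-regulator, went from 7.39, 8.31 and 6.34 to 1.68, 0.924 and 1.98, and RAET1L, a ligand of the NKG2D receptor, from 2.43, 1.84 and 2.17 to 0.542, 0 and 0. COL17A1, the collagen of hemidesmosomes that anchor basal epithelium, fell by 1.55 ± 0.18, and its partner laminin subunit LAMB3 fell by 0.70 ± 0.13. The falls in these 5 genes were kept under every alternative in which they were tested.

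Of 38 androgen receptor targets 13 fell and 2 rose, against 2.37% and 1.71% of all genes tested, with a median of -0.23. With 1 library left out 9 or 10 fell. KLK3, which encodes prostate-specific antigen, read 658, 647 and 581 RPKM in shFOXA1 and 618, 585 and 689 with KC7F2, overlapping groups with a change of 0.0036 ± 0.13 (95% interval -0.28 to 0.28). TMPRSS2, a surface protease, changed by -0.0022 ± 0.09. FKBP5, a co-chaperone of steroid receptors, fell by 0.62 ± 0.10 (59.5, 62.9 and 63.98 against 41.1, 40.2 and 39.4 RPKM), ELL2, an elongation factor, by 0.69 ± 0.07 and HPGD, a prostaglandin dehydrogenase, by 0.96 ± 0.13. The androgen receptor itself read 31.4, 28.9 and 28.8 against 36.9, 35.98 and 35.3 RPKM, a change of 0.28 ± 0.12 (adjusted p = 0.282), which passed only once the trend with gene length was removed (0.023). ACSL3, which activates fatty acids, rose by 0.30 ± 0.08 (adjusted p = 0.0497), a call lost without any 1 of the 6 libraries. FOLH1, the prostate-specific membrane antigen, rose by 0.79 ± 0.09.

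Some of the genes that HIF1A drives fell. Of 33 tested hypoxia targets 6 fell and 1 rose, with a median of -0.22. Of 25 glycolysis and glycogen enzymes 5 fell and 0 rose, with a median of -0.26. The share of all genes tested was 2.37% for falls and 1.71% for rises. The glycolysis count was 4 without shFOXA1 1 and 2 without any other of the 6 libraries. LDHA, which turns pyruvate into lactate, read 361, 348 and 342 RPKM in shFOXA1 and 229, 227 and 220.2 with KC7F2, leaving 64.3% (adjusted p = 0.00223). PDK1, a kinase that keeps pyruvate out of mitochondria, went from 18.95, 16.5 and 16.2 to 10.3, 10.9 and 10.8 RPKM, a fall of 0.66 ± 0.09. The bifunctional glycolytic regulator PFKFB4 fell by 0.54 ± 0.10, and NDRG1, a stress and differentiation gene that is also an androgen target, fell by 0.55 ± 0.10. P4HA2, a collagen prolyl hydroxylase, fell by 0.67 ± 0.13. The core bound by HIF (ACGTG or GCGTG, either strand) stood in the windows of 4 of 5 called hypoxia targets that have one, against 43.2% of all windows, 65.5% of those of tested genes, 62.7% of those that rose and 57.3% of those that fell. PLOD2, a collagen lysyl hydroxylase, fell by 0.81 ± 0.18 (adjusted p = 0.0163). The PLOD2 call was lost without shFOXA1 1 (0.0736) or 2 (0.0556), without shFOXA1 with KC7F2 2 (0.0549) or 3 (0.0763), or with a pseudocount of 0.1 (0.162).

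Other HIF1A targets did not pass. VEGFA, the main angiogenic growth factor, read 32.6, 37.5 and 39.3 RPKM and 37.8, 35.5 and 34.1 with KC7F2, overlapping groups with a change of -0.02 ± 0.14 (95% interval -0.31 to 0.27). The glucose transporter SLC2A1 read 38.2, 34.3 and 40.04 against 39.9, 35.5 and 30.8 RPKM, a change of -0.09 ± 0.12. BNIP3, a mitophagy receptor, was lower without overlap at -0.43 ± 0.15 (adjusted p = 0.129). It passed under 3 of the 18 alternatives, with the lowest p at 0.0123 when the model held only these 2 groups. CA9, a carbonic anhydrase, stayed under the level needed for a test, at 0.836, 0.422 and 0.373 RPKM and 0.1399, 0.0961 and 0.367 with KC7F2. ANGPT2, a vessel-destabilising ligand, was the hypoxia list's riser, from 1.996, 1.86 and 1.83 to 4.13, 4.25 and 3.898 RPKM. Among 15 HIF subunits and regulators, CITED2, which competes with HIF1A for its co-activator, fell by 0.61 ± 0.10. No other member passed, against 4.08% of all genes called in either direction. EPAS1, the HIF1A paralog, changed by -0.29 ± 0.19 and the oxygen sensor EGLN1 by -0.19 ± 0.12.

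The HIF1A shRNA, added to the FOXA1 shRNA, left 4.33, 4.07 and 4.56 RPKM of HIF1A mRNA. Both comparisons use the shFOXA1 libraries, so their values are set side by side without a test of likeness. FOXA1 itself stood at 64.5 ± 5.77 RPKM (SD, n = 3) under both shRNAs, a higher level than in shFOXA1 alone. The part of this weaker FOXA1 knockdown in the shRNA values below was not tested. With the shRNA 21 hypoxia targets fell and 4 rose, and 20 glycolysis enzymes fell and 1 rose, against 13.5% of all genes lower and 24.0% higher (37.5% in all) in that comparison. LDHA changed by -0.64 with KC7F2 and -2.59 with the shRNA, and PDK1 by -0.66 and -2.48. For SLC2A1 the values were -0.09 and -1.26, for VEGFA -0.02 and -0.86, and for BNIP3 -0.43 and -1.60. P4HA2 and CITED2 fell with KC7F2 but were at 0.55 and 0.19 with the shRNA.

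**Figure D3:**
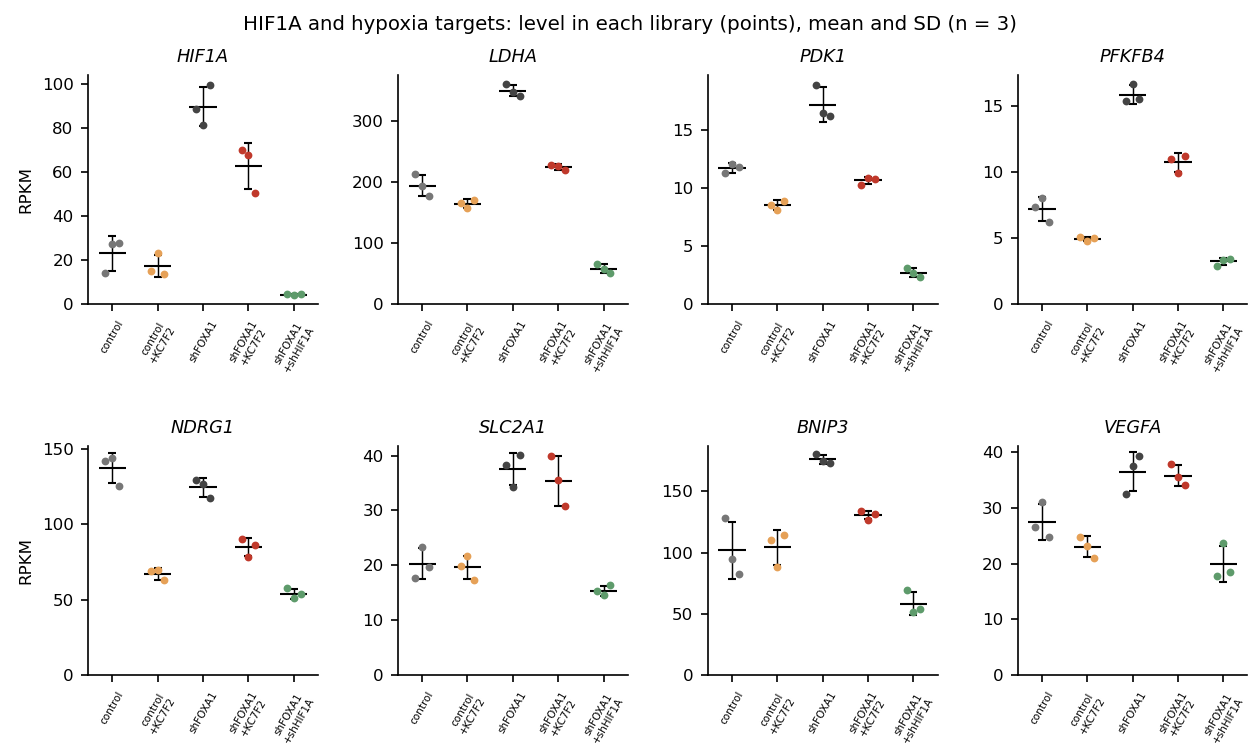
RPKM (vertical axes, from 0) of HIF1A and 7 hypoxia targets in each library of 5 groups (points), with the mean and SD (n = 3). LDHA, PDK1, PFKFB4 and NDRG1 are lower with KC7F2 than in shFOXA1 alone and lower again with the HIF1A shRNA, SLC2A1 and VEGFA overlap with KC7F2, and HIF1A mRNA is at 4.07 to 4.56 RPKM with the shRNA.

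The direct test of KC7F2 against the HIF1A shRNA, both on FOXA1 knockdown, called 1700 genes higher (13.2%) and 3020 lower (23.4%), 36.6% in all, in the KC7F2 cells. With median-ratio scaling, which moved the median of all genes from -0.095 to 0.018, the split was 2303 and 2300. FOXA1 mRNA differed between these groups, lower with KC7F2 by 0.71 (adjusted p = 0.00221), and HIF1A mRNA was higher by 3.70. The part of the FOXA1 difference in the other calls was not tested. LDHA was higher with KC7F2 by 1.96 ± 0.11, PDK1 by 1.81 ± 0.09, SLC2A1 by 1.17 ± 0.12 and VEGFA by 0.84 ± 0.14. Of the 29 NRF2 genes 21 were higher and 1 lower, with NQO1 higher by 1.12 ± 0.12, while SLC7A11, at 45.01 ± 2.04 against 53.1 ± 1.04 RPKM, did not pass (-0.24 ± 0.11, adjusted p = 0.0941). Of the 30 mitosis genes 21 were higher and 0 lower, whereas of the 25 p53 targets 1 was higher and 21 were lower. Against shFOXA1 alone, 23 mitosis genes fell and 0 rose with the HIF1A shRNA, and 0 were called with KC7F2. Of the p53 targets 19 rose and 2 fell with the shRNA, and 0 rose and 6 fell with KC7F2. Of all genes 24% rose and 13.5% fell with the shRNA, and 1.71% and 2.37% with KC7F2. Among the 8 genes of smallest adjusted p, GPNMB was at 36.1 ± 3.14 against 2.63 ± 0.275 RPKM (SD, n = 3). S1PR3, a sphingosine phosphate receptor, was at 71.9 ± 8.74 against 5.62 ± 0.557 RPKM and the growth factor PTN at 0.168 ± 0.148 against 49.2 ± 1.55. CDC42EP3, DUSP4, FLJ23867 and ALDH9A1 were also among the 8, with differences of -2.43, -2.43, -2.43 and 1.98.

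Several lists held no call with KC7F2 in FOXA1 knockdown cells, against 4.08% of all genes called in either direction, so that a count of 0 in a list of this size lies near the background. Mitosis and spindle genes had 0 called members of 30 (median -0.10), MYC and ribosome biogenesis genes 0 of 25 (-0.15), proteasome subunits 0 of 31 (0.09) and respiratory chain subunits 0 of 30 (-0.06). Metallothioneins and zinc-response genes had 0 of 7 and forkhead factors with their partners 0 of 14. Cytosolic ribosomal proteins had 0 of 46, yet 45 of the 46 values were negative and their median was -0.28, against -0.0093 for all genes. PABPC1, a poly(A)-binding protein, fell by 0.61 ± 0.09 (661, 614 and 625 against 426, 389.9 and 428 RPKM). It was the only call among 17 tested genes of translation control and mTOR outputs (median -0.13), a count near the background. MAT2A, which makes the methyl donor S-adenosylmethionine, rose by 0.85 ± 0.11. At or near the same background, endoplasmic reticulum folding genes gave 1 fall and 0 rises of 23, and heat shock genes 2 falls and 1 rise of 20, none of which held under all 18 alternatives.

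KC7F2 was also given to control cells, in libraries that the comparison above does not use. There 135 genes (1.05%) rose and 128 (0.992%) fell, 2.04% in all, or 101 and 195 with median-ratio scaling. The count depends on the spread shared with other groups: 25 genes passed with only the control groups fitted, and 67 without control 1, control with KC7F2 1 and control with KC7F2 3, a fit that sets 1 KC7F2 library against 2 and assumes that it varies like the other groups. With 1 library left out, 497 passed without control 1, 173 without 2, 172 without 3, and 150, 211 and 165 without control with KC7F2 1, 2 and 3. Short genes read high in control 1, control with KC7F2 1 and control with KC7F2 3. In these 3 libraries the median deviation of the lowest length quartile was above that of the highest by 0.50, 0.47 and 0.37 (log2). This difference ran from -0.20 to -0.05 in the 6 libraries of FOXA1 knockdown cells with or without KC7F2. Of the 220 genes raised in FOXA1 knockdown cells, 208 (94.5%) had a positive value in control cells, against 63.0% of all genes. In control cells 75 of the 220 rose and 1 fell, which was ACSL3, named after its value was seen. The median of the 220 was 0.62 in knockdown and 0.40 in control cells. Of the 306 lowered genes, 70 averaged under 1 RPKM in control cells and could hardly fall there, and 249 (81.4%) had a negative value in control cells, against 37.0% of all genes. In control cells 60 of the 306 fell and 0 rose, and the medians were -0.70 in knockdown and -0.23 in control cells. The 220 and the 306 were picked by passing in knockdown cells, which enlarges their medians there. Neither pair of medians therefore compares the strength of the response in the 2 backgrounds.

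NRF2 and lipid genes rose in both backgrounds. In control cells 16 of 29 NRF2 genes rose and 0 fell, with a median of 0.61. There 12 of 27 lipid genes rose and 0 fell, with a median of 0.55. Among all genes tested 1.05% rose and 0.992% fell in control cells. Fitted with only the 2 control groups, 1 NRF2 gene and 5 lipid genes passed with the same medians, and the NRF2 count was 9 without all 3 libraries above and 11 without control 3, control with KC7F2 1 or control with KC7F2 3. NQO1 read 137, 108 and 94.8 RPKM in control and 239, 203 and 238 with KC7F2, a rise of 1.01 ± 0.12 that did not pass with only the 2 control groups (adjusted p = 0.0996). SREBF1 read 54.1, 55.2 and 44.9 against 144, 126 and 124 RPKM, a rise of 1.35 ± 0.12. The difference between backgrounds was 0.08 ± 0.17 for NQO1 and -0.0014 ± 0.17 for SREBF1 (interaction, adjusted p = 0.971 and 0.999), with 95% intervals of -0.28 to 0.43 and -0.36 to 0.36. Of 38 androgen receptor targets 18 fell and 0 rose in control cells, with a median of -0.44. The fitting of the 2 control groups alone left 6 of these falls, and leaving out the 3 libraries left 9. KLK3 fell there by 0.66 ± 0.13, from 958, 769.9 and 711 to 549.9, 464 and 525 RPKM (adjusted p = 0.0125). The change was as large, at -0.59, -0.66 and -0.66, but did not pass without control with KC7F2 2 (0.0600), in the fit of 2 groups (0.405) and with no filter on low values (0.0656). Without the 3 libraries, which leaves 1 control library with KC7F2, it was -0.67. The interaction of 0.66 ± 0.19 did not pass (adjusted p = 0.282).

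The test of the difference between backgrounds called 10 genes (0.0775%), 2 higher (0.0155%) and 8 lower (0.062%) in FOXA1 knockdown cells, of 872 at an unadjusted p below 0.05. Median-ratio scaling gave 4 and 4. The count ran from 2 to 27 over the alternatives, and KRT16 and ENC1 passed in all 24 of the fits. A gene near 0 in control cells cannot fall there on this scale, so its negative interaction restates the fall in knockdown cells and shows no different response. That holds for KRT16 (0.0513, 0.151 and 0 RPKM in control, interaction -3.22), NRCAM (0.0527, 0.0258 and 0 RPKM, -1.37) and COL17A1 (0, 0.0462 and 0.0518 RPKM, -1.48). S100A9, at 0.915, 1.197 and 0.672 RPKM in control and an interaction of -1.62, had room for some fall at a level where single reads matter. Its value in control cells was -0.15 ± 0.20 and did not pass. The other genes were expressed in both backgrounds. ENC1, an actin-associated Kelch protein, read 136, 139 and 146 RPKM in shFOXA1 and 71.4, 69.7 and 68.2 with KC7F2, and 5.78, 6.42 and 6.48 against 6.79, 7.899 and 7.38 in the control cells. Its fall was 1.00 ± 0.08 in knockdown cells, against a value of 0.22 ± 0.08 in control cells that did not pass, an interaction of -1.22 ± 0.12 (adjusted p = 7.2e-05). CD24, ITGA6 and ATP2B1, at 3.57 ± 0.121, 6.05 ± 0.633 and 8.38 ± 0.561 RPKM in control cells (SD, n = 3), fell in knockdown cells and did not pass in control cells. Their interactions were -1.15, -0.83 and -0.76, and each lost the call in most of the 24 fits. MAF, a transcription factor on the androgen target list, fell by 0.92 ± 0.09 in knockdown cells and by 1.76 ± 0.09 in control cells. For secreted defence proteins, 5 of 15 averaged under 1 RPKM in control cells, so the list medians of -1.25 in knockdown and -0.30 in control cells cannot be compared. There 2 of 15 fell, PI3 among them by 1.38 ± 0.21 (adjusted p = 0.00147, and 0.160 with only the 2 control groups).

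**Figure D4:**
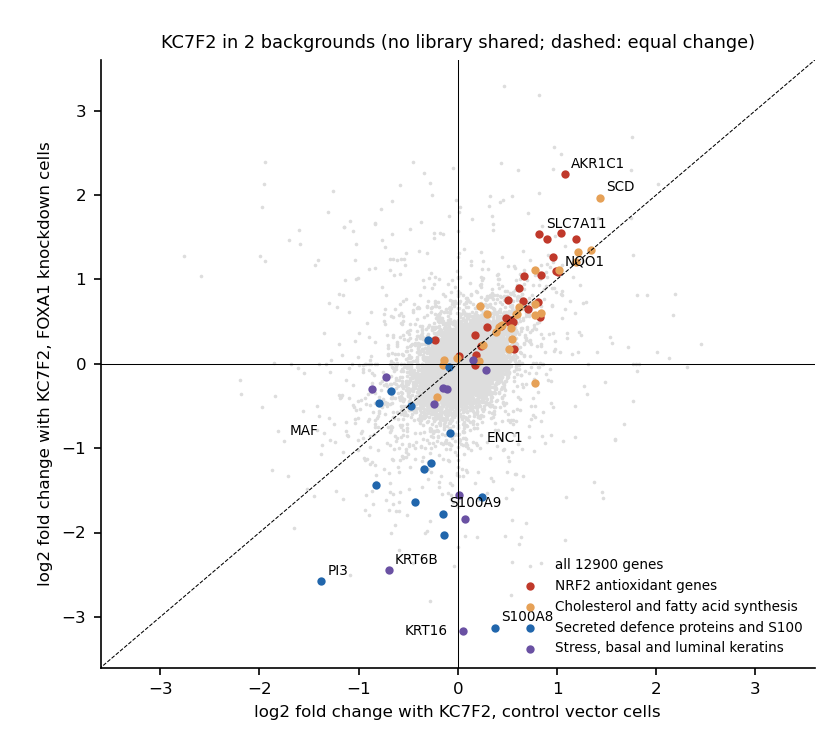
Log2 fold change with KC7F2 in FOXA1 knockdown cells (vertical axis) against that in control cells (horizontal axis), each point a gene and the dashed line equal change; the axes share no library. Positive on both axes are 27 of 29 NRF2 and 22 of 27 lipid synthesis genes, and KRT16, KRT6B, S100A8 and S100A9 lie far below 0 on the vertical axis, with control cell values between -0.70 and 0.38.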

How the data were processed

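Total RNA of 18 samples (6 groups of 3) was made into libraries with the NEBNext Ultra RNA kit, per the labels' protocols, and the authors deposited 1 table of RPKM per gene. The submitters' processing notes name STAR and hg38. Which counting program, annotation and strand setting were used is not given in the sources used here. Of 26475 lines, 32 held no values. Since RPKM are not counts, limma 3.58.1 (R 4.3.3) was fitted to log2(RPKM + 0.5) of the 12900 genes with at least 1 RPKM in 3 libraries, with a mean per group over all 6 groups (12 residual degrees of freedom), a trended variance and Benjamini-Hochberg adjustment; fits were tested on simulated data. SDs are of RPKM.

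The genes named are 7 set genes (FOXA1, HIF1A, CCL2, VEGFA, CA9, KLK3, LDHA), the 12 largest rises and falls with at least 2 RPKM in a group and no overlap, up to 4 members per list and those whose role is described, and the 8 smallest adjusted p-values of the interaction and of the comparison with the HIF1A shRNA. The comparison, the gene lists and their members were chosen with earlier results of these data known. Gene positions are from GENCODE 29, matched by symbol for 23809 genes. Depth was estimated from the steps between the lowest RPKM, of which 80.0% to 88.5% per library then came within 2% of whole reads. Alternatives were another pseudocount, filter, scaling, length correction or variance model, the compared groups alone, a replicate block and each library left out; leaving out small RNA genes or 3 control libraries, and the sterol motif, were chosen after seeing the data. Some genes that this rule names are not reported here.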

Additional observations from a re-analysis of the deposited data

Results flagged for a closer look

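Limma's test of the difference in log2 fold change with KC7F2 between FOXA1 knockdown and control cells, with Benjamini-Hochberg adjustment over 12900 genes, called 10 genes. The interaction is the log2 fold change in knockdown cells minus that in control cells, each from 3 libraries per group. KRT16, NRCAM, COL17A1 and S100A9 averaged under 1 RPKM in control cells (0.0674 ± 0.0767, 0.0262 ± 0.0263, 0.0327 ± 0.0284 and 0.928 ± 0.263, SD, n = 3). For KRT16, NRCAM and COL17A1 little or no fall could be measured there, so their negative interactions were fixed by that low level and are given as a description only. S100A9 had room for some fall, at a level where single reads matter. Its change in control cells was -0.15 ± 0.20 and did not pass. KRT16 had -3.22 ± 0.24 (adjusted p = 4.92e-06) and ENC1 -1.22 ± 0.12 (adjusted p = 7.2e-05), and both passed in all 24 alternative fits. MAF, at 0.84 ± 0.12 (adjusted p = 0.0167), passed in 16 of them and fell in both backgrounds, more in control cells. ENDOD1, an endonuclease-like protein, had 0.66 ± 0.11 (adjusted p = 0.045): it was at 0.15 in knockdown cells, where it did not pass, and fell by 0.52 ± 0.08 in control cells, a call lost with only the 2 control groups fitted (0.280) and without the 3 control libraries with more signal in short genes (0.0739). NRCAM, a neural adhesion molecule, had -1.37 ± 0.22 (adjusted p = 0.0374), and CD24, a surface glycoprotein, -1.15 ± 0.19 (adjusted p = 0.045). S100A9 had -1.62 ± 0.28 and the calcium pump ATP2B1 -0.76 ± 0.13 (adjusted p = 0.045 each). The hemidesmosome genes ITGA6 and COL17A1 had -0.83 ± 0.15 and -1.48 ± 0.26 (adjusted p = 0.0469 each).

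Apart from KRT16, ENC1 and MAF, each of these genes passed in 7 to 10 of the 24 alternatives (23 for COL17A1). The count of 10 became 2 without control 2, shFOXA1 3 or control with KC7F2 1 or 3, and 3 without control 3, shFOXA1 1, control with KC7F2 2 or shFOXA1 with KC7F2 2. It was 8, 6 and 5 without shFOXA1 2 and shFOXA1 with KC7F2 1 and 3, and 23 without control 1.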

How the results depend on the processing

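For KC7F2 on FOXA1 knockdown the counts of rises and falls stayed within 1.5 times of 220 and 306 under each of the 12 alternatives that change no library of the comparison, from 178 to 325 rises and 230 to 372 falls. With 1 library left out they were 114 to 151 and 181 to 206, which the smaller number of samples lowers by construction. In control cells 263 calls became 25 with only the groups compared and 67 without the 3 control libraries with more signal in short genes, and ranged from 150 to 497 with 1 library left out. The 10 interaction calls became 3 with a pseudocount of 0.1, 27 with a pseudocount of 1, 27 without a filter, 25 with quantile normalisation, 23 with the length trend removed, 24 without small RNA genes, 2 with only the groups compared and 2 without the 3 control libraries, and ranged from 2 to 23 with 1 library left out; the cause was not tested. No called value changed sign. Of 144 called genes named here or on the lists, 90 kept the call under every alternative.

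Replicate numbers were shared across groups. Same-numbered shFOXA1 libraries with and without KC7F2 did not deviate together (r = 0.012, -0.037 and -0.020 across genes). Differently numbered ones gave r from -0.035 to 0.056. These correlations show no pairing between those groups, but they cannot exclude a batch shared by number, and the other groups were not examined in this way. With the replicate block 230 genes rose and 326 fell, and 487 of the 526 calls were kept; the interaction gave 9 and the comparison with the HIF1A shRNA 4869 calls. Depth limits genes below about 1 RPKM, where single reads move a value.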

Other observations

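The genes below were chosen after their values were seen, are on no list used above, and carry limma's adjusted p from the same fit. Among genes of fatty acid handling, CPT1A, which admits fatty acids to mitochondria, read 57.2, 62.05 and 60.9 RPKM in shFOXA1 and 27.5, 24.2 and 25.6 with KC7F2, a fall of 1.20 ± 0.08 (adjusted p = 2.91e-07). LPIN1, a phosphatidate phosphatase, and ACSL1, which activates fatty acids, rose by 1.09 ± 0.10 and 0.82 ± 0.10. DGAT2, the last step of triglyceride synthesis, fell by 0.73 ± 0.11.

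CYP1A1, a standard target of the aryl hydrocarbon receptor, went from 2.29, 1.07 and 2.002 to 4.502, 4.18 and 4.20 RPKM, a rise of 1.11 ± 0.19 (adjusted p = 0.00244), and CYP1A2, whose reads may be shared with it, rose by 1.99 ± 0.25. TIPARP, another target of that receptor, fell by 0.65 ± 0.16 (adjusted p = 0.0323), a call lost without shFOXA1 1 (0.0659) or 3 (0.161) or shFOXA1 with KC7F2 1 (0.0549), 2 (0.109) or 3 (0.112). The TIPARP call was also lost with no filter on low values (0.0578) and with only the groups compared (0.0572). The receptor's own mRNA, AHR, was at 0.33 ± 0.18 and did not pass (adjusted p = 0.403).

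SGK1, a kinase induced by steroids and cell stress, read 14.1, 12.2 and 12.3 RPKM in shFOXA1 and 4.17, 4.22 and 4.35 with KC7F2, a fall of 1.49 ± 0.16. KLF9 and TXNIP, which answer to glucocorticoid or androgen, fell by 0.56 ± 0.08 and 0.53 ± 0.07. Among epithelial and acute-phase genes, SPRR2A, of the cornified envelope, fell by 1.62 ± 0.23 and SERPINA3, a protease inhibitor, by 1.75 ± 0.20, whereas IL36RN, an antagonist of the IL-36 receptor, rose by 1.01 ± 0.14.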
